A study of Drosophila melanogaster with 16 samples.

Results

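The response of control larvae to a sugar-rich diet was read from whole-larva RNA-seq, in which 4 libraries of larvae on a high sugar diet (control HSD) were set against 4 libraries of larvae on a low sugar diet (control LSD), 8 of the 16 libraries of the study. All 9950 genes that passed a filter on low values, of 9982 listed, were examined. Both groups were control animals in which Tub-GAL4, a driver active in all tissues, was combined with a TRiP insertion that makes double-stranded RNA against luciferase, a gene that flies lack. Larvae were collected at 24 h after egg laying onto LSD, moved at 48 h to fresh plates and fed for 8 h. The control HSD larvae then ate 10% yeast with 15% sucrose, and the control LSD larvae ate 10% yeast with no added sugar. Each library was made from 20 pooled larvae, so the spread between libraries is a spread between pools and not between animals. The stage is given as early 2nd instar in the growth protocol and as 3rd instar in another label. A genotype label names wild type for the LSD libraries and an erk7 mutant for the HSD libraries, whereas titles and source names call both control. The other 8 libraries were larvae that carried Tub-GAL4 with an RNAi insertion against grn (grn HSD and grn LSD), on the same diets for the same 8 h.

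Sugar that enters a fly cell is sensed as glucose 6-phosphate by the transcription factor pair Mondo-Mlx, which binds carbohydrate response elements and raises genes of sugar use and of fat synthesis. Its targets include the genes of further transcription factors, Sugarbabe (sug) and Cabut (cbt), so that a meal spreads through a network. The pentose phosphate pathway and malic enzyme supply NADPH, and ATP citrate lyase, acetyl-CoA carboxylase and fatty acid synthase turn surplus carbon into fatty acids that are stored as triacylglycerol. The same diet lowers digestive enzymes for starch and other polysaccharides in flies, a form of glucose repression.

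Values are normalized CPM, the reads of a gene scaled to a common library size, as normalized by the authors. They allow a gene to be compared between libraries but are not per transcript length, so levels of different genes are not compared here. A gene was called when its adjusted p (limma on log2 values, Benjamini-Hochberg over all genes tested) was under 0.05. In control HSD larvae 1918 genes (19.3% of those tested) were called higher and 2220 (22.3%) lower than in control LSD larvae. For 31.5% of the genes tested, called or not, the libraries of the diets did not overlap (1335 higher and 1803 lower on HSD). Most changes were small. The median log2 fold change was 0.33 among the genes called higher and -0.32 among those called lower, while it was 0.02 over all genes tested. Among the called genes 95 rose and 87 fell by more than 2-fold, and 7 rose and 19 fell by more than 4-fold. The strong tail was therefore longer on the side of the falls, with 6 genes past 8-fold, against 3 among the rises.

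Weighed by the signal they carry, the genes that rose by more than 2-fold took 3.11% to 3.18% of a library's summed values in control HSD larvae, against 1.19% to 1.28% in control LSD larvae. Those that fell by more than 2-fold took 0.218% to 0.29% in control HSD larvae, against 0.637% to 0.831% in control LSD larvae. When the genes tested were split into 4 equal parts by mean level, 36 of the strong rises and 16 of the strong falls were in the highest part, against 24 and 30 in the lowest. Of the genes in the highest part, 33.4% were called lower and 18.9% higher, and of those in the lowest part 7.32% were called lower and 19.7% higher. A test on few reads finds fewer small changes, so shares at different levels are given side by side only.

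**Figure D1:**
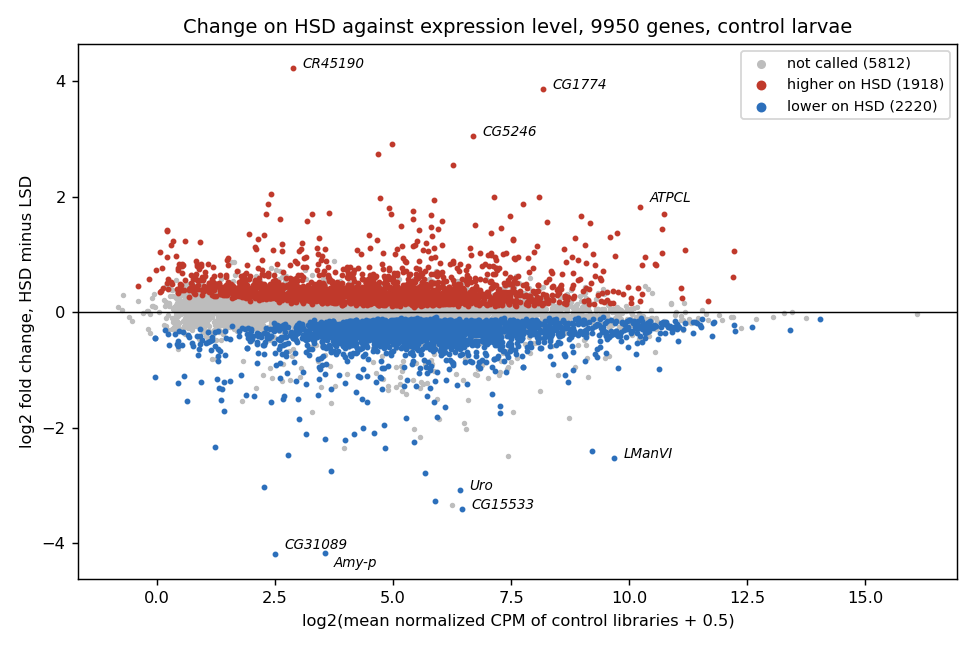
Each point is 1 of 9950 genes, with its mean level over the 8 control libraries on the x axis (log2 of normalized CPM + 0.5) and its log2 fold change, HSD minus LSD, on the y axis. Red points are the 1918 genes called higher on HSD, blue points the 2220 called lower and grey points the rest, and CR45190 at 4.22 and CG31089 at -4.19 have the largest changes in either direction.

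The 8 control libraries held between 24038848 and 27605460 reads. In a principal component analysis, control HSD replicates 1 and 2 lay at 35.7 and 30.1 on the first component (50.2% of the variance), while control HSD replicates 3 and 4 lay at -11.4 and 6.56, next to or among the control LSD libraries at -25.6 to -3.83. On the second component (28.3%) control HSD replicates 3 and 4 lay at -29.9 and -18.3, apart from the control LSD libraries at -2.33 to 22.5. Larval cuticle protein genes, which are made in waves around each moult, were lower in control HSD replicates 1 and 2 than in replicates 3 and 4. Their 90 genes summed to 16248, 14331, 26565 and 21355 normalized CPM in control HSD larvae, against 28918, 20187, 23235 and 21581 in control LSD larvae. Only 1 of the 90 was called, TwdlX (log2 fold change -0.29, SE 0.07, adjusted p = 0.0038). Without control HSD replicate 3 the fit called 7 lower and 3 higher, and without control HSD replicates 3 and 4 it called 24 lower and 2 higher. Without control LSD replicate 4 it called 2 lower. No direction is therefore given for the cuticle genes. Over all genes, dropping both libraries left 1662 genes higher and 2057 lower. The part that moulting stage plays in the other changes was not tested.

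**Figure D2:**
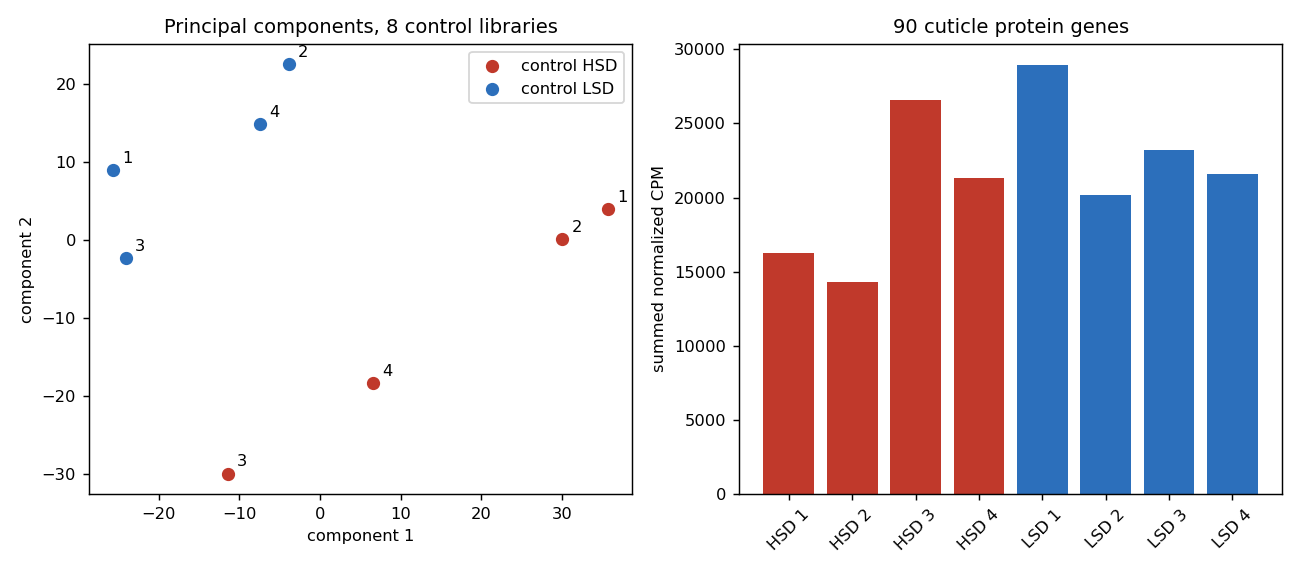
Left, the first and second principal components of the 8 control libraries, numbered by replicate, with control HSD in red and control LSD in blue. Right, the summed normalized CPM of 90 cuticle protein genes in each library, from 14331 in control HSD replicate 2 to 28918 in control LSD replicate 1, with control HSD replicate 3 at 26565.

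Among 11 genes listed for the sugar-sensing network, regulators and enzymes, 5 (45.5%) were called higher and 2 (18.2%) lower in control HSD larvae. Of all genes tested, 19.3% were called higher and 22.3% lower. sug, the gene of the zinc finger factor Sugarbabe, held 85.2, 100.1, 95.3 and 81.6 normalized CPM in control HSD larvae, against 44.1, 40.3, 34.7 and 41.1 in control LSD larvae. It more than doubled, with no overlap between the diets (log2 fold change 1.17, SE 0.09, adjusted p = 1.3e-07). daw, which encodes the Activin-type ligand Dawdle, held 49.7, 50.7, 56.6 and 48.6 in control HSD larvae, against 34.2, 32.4, 35.3 and 40.3 in control LSD larvae (log2 fold change 0.53, SE 0.07, adjusted p = 5.1e-05). cbt, the gene of the repressor Cabut, held 96.7, 91.8, 97.4 and 81.5 in control HSD larvae, against 71.9, 58.9, 66.4 and 72.0 in control LSD larvae (log2 fold change 0.45, SE 0.07, adjusted p = 1.5e-04). The libraries of the diets did not overlap for either gene. Mondo itself, which senses sugar in that pair, rose less (log2 fold change 0.30, SE 0.06, adjusted p = 0.0014), and bigmax, the fly Mlx gene, did not pass (log2 fold change 0.00, SE 0.10, adjusted p = 0.98). Along the Dawdle route, the receptor genes babo (log2 fold change 0.04, adjusted p = 0.67) and put (log2 fold change 0.05, adjusted p = 0.35) did not pass either. The signal transducer Smox had a small called rise whose libraries overlapped (log2 fold change 0.16, SE 0.05, adjusted p = 0.02), and the call was lost without control HSD replicate 2 (0.13, adjusted p = 0.065), control LSD replicate 1 (0.14, adjusted p = 0.052) or control LSD replicate 2 (0.15, adjusted p = 0.051) and with the 8 control libraries alone (0.16, adjusted p = 0.097). grn held 20.1, 21.6, 23.4 and 17.1 in control HSD larvae, against 14.6, 17.8, 20.8 and 19.1 in control LSD larvae and did not pass (log2 fold change 0.18, SE 0.10, adjusted p = 0.17), though it did without control HSD replicate 4 (0.26, adjusted p = 0.047). Both members called lower encode enzymes and not regulators. They were tobi, described with the digestive genes, and Aldh-III, an aldehyde dehydrogenase gene (log2 fold change -0.44, SE 0.08, adjusted p = 7.2e-04).

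Sugar use split between pathways. All 7 genes of the pentose phosphate pathway rose, with a median log2 fold change of 1.30, while the 13 genes of glycolysis had a median of 0.16, with 6 called higher (46.2%) and 2 lower (15.4%). The shares over all genes tested were 19.3% and 22.3%. The committed step moved furthest. Zw, glucose-6-phosphate dehydrogenase, held 229, 227, 231 and 213 normalized CPM in control HSD larvae, against 54.9, 58.5, 51.6 and 60.5 in control LSD larvae (log2 fold change 1.99, SE 0.05, adjusted p = 4.5e-12). Pgd, the dehydrogenase of the next oxidative step, held 758, 731, 829 and 759 in control HSD larvae, against 265, 235, 236 and 231 in control LSD larvae (log2 fold change 1.67, SE 0.06, adjusted p = 6.0e-11). Each diet was tight around its mean and the groups were several SDs apart. In the non-oxidative branch Taldo, transaldolase, held 1105 ± 37.3 in control HSD larvae and 449 ± 48.1 in control LSD larvae (log2 fold change 1.30, SE 0.06, adjusted p = 1.4e-09, mean ± SD of normalized CPM, n = 4 libraries each). CG8036, which RefSeq lists with the transketolase synonym Transk, held 2601 ± 76.5 in control HSD larvae and 802 ± 24.2 in control LSD larvae (mean ± SD, n = 4 each; log2 fold change 1.70, SE 0.04, adjusted p = 1.6e-12). Glycolysis rose most at Pgi and PyK. Pgi, which interconverts glucose 6-phosphate and fructose 6-phosphate, held 1104 ± 40.7 in control HSD larvae and 565 ± 38.7 in control LSD larvae (log2 fold change 0.97, SE 0.05, adjusted p = 6.3e-09), and PyK, pyruvate kinase, held 1582 ± 58.9 in control HSD larvae and 900.5 ± 57.7 in control LSD larvae (log2 fold change 0.81, SE 0.05, adjusted p = 9.7e-09). Hex-A, hexokinase A, rose by less (log2 fold change 0.50, SE 0.05, adjusted p = 2.4e-06), as did Eno, enolase (log2 fold change 0.41, SE 0.07, adjusted p = 4.1e-04). Hex-C, another hexokinase gene, fell (log2 fold change -0.73, SE 0.19, adjusted p = 0.0062), and so did ImpL3, lactate dehydrogenase (log2 fold change -0.42, SE 0.12, adjusted p = 0.013), both with overlapping libraries. The ImpL3 call was lost when the 8 control libraries were fitted alone (-0.42, adjusted p = 0.07) or control HSD replicates 3 and 4 were left out (-0.22, adjusted p = 0.12).

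**Figure D3:**
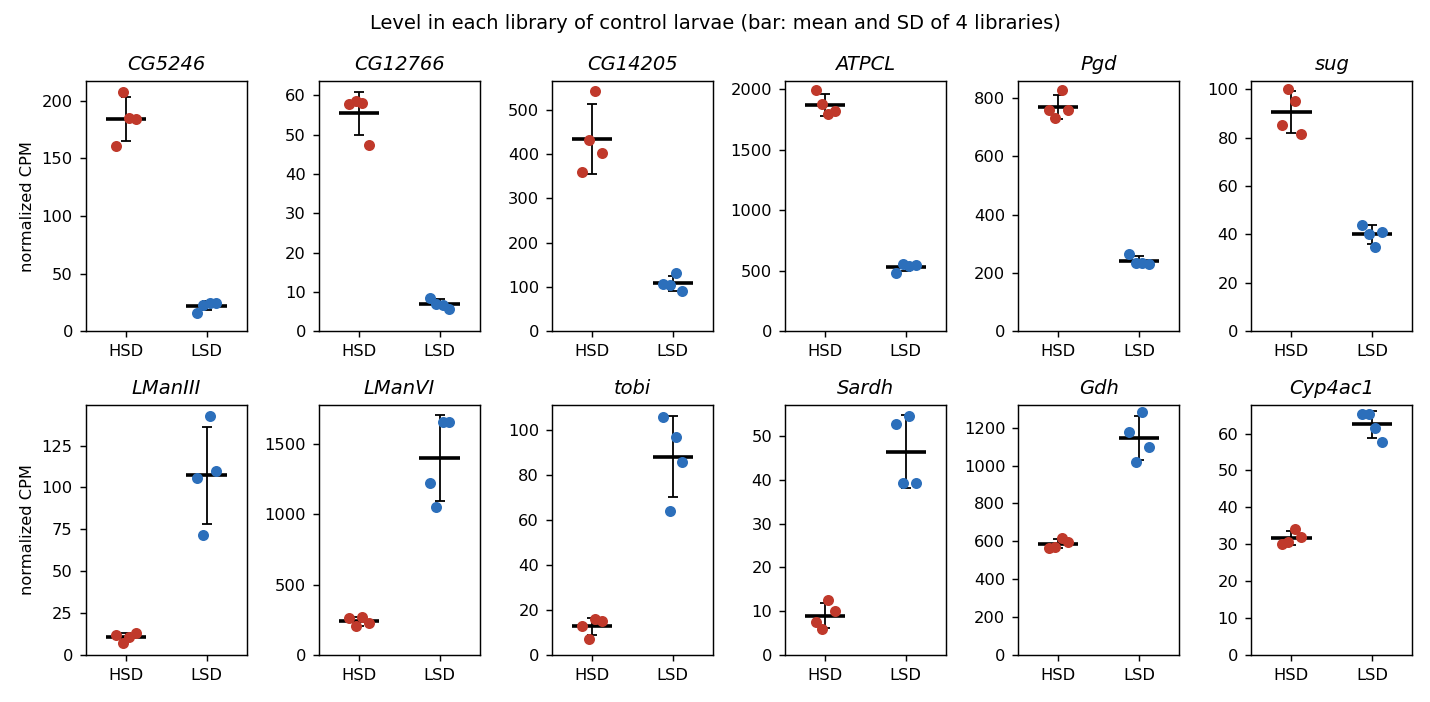
Normalized CPM of 12 genes in each control library, HSD at the left and LSD at the right of each panel, with points for the 4 libraries, a line for the mean and bars for the SD. The upper row holds genes that rose on HSD and the lower row genes that fell. In none of the panels do the diets overlap, which the rule for the largest changes required of several of these genes.

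Genes of fat synthesis rose as well. Of the 9 genes of fatty acid synthesis 7 rose and 0 fell, with a median log2 fold change of 0.95. ATPCL, ATP citrate lyase, which releases cytosolic acetyl-CoA, held 1991, 1878, 1790.4 and 1816 normalized CPM in control HSD larvae, against 484, 558, 535 and 549 in control LSD larvae (log2 fold change 1.81, SE 0.06, adjusted p = 6.0e-11). AcCoAS, acetyl-CoA synthase, held 1709 ± 62.0 in control HSD larvae and 886 ± 62.5 in control LSD larvae (mean ± SD, n = 4 each; log2 fold change 0.95, SE 0.07, adjusted p = 1.0e-07). The next enzymes of the chain, ACC (acetyl-CoA carboxylase, log2 fold change 1.02, adjusted p = 1.4e-07) and FASN1 (fatty acid synthase, log2 fold change 1.06, adjusted p = 1.1e-06), rose about 2-fold. Desat1, the stearoyl-CoA desaturase, held 2333, 2572, 2609.9 and 2257 in control HSD larvae, against 989, 899, 884 and 824 in control LSD larvae (log2 fold change 1.44, SE 0.06, adjusted p = 3.8e-10). Every library on HSD exceeded every library on LSD for each of these genes. Assembly of triacylglycerol was mixed, with 7 of 13 genes higher (53.8%) and 5 lower (38.5%), beside 19.3% and 22.3% of all genes tested. fu12, the acyltransferase gene that RefSeq now names Agpat2, held 97.9 ± 5.15 in control HSD larvae and 32.4 ± 1.47 in control LSD larvae (log2 fold change 1.58, SE 0.06, adjusted p = 8.3e-11), mino, which adds the first acyl chain, rose (log2 fold change 0.74, SE 0.06, adjusted p = 2.3e-07), and Gk2, a glycerol kinase gene, rose too (log2 fold change 0.71, SE 0.06, adjusted p = 3.0e-07). CG1941, placed in the same list, fell (log2 fold change -0.77, SE 0.08, adjusted p = 4.6e-06). The number of higher members in the triacylglycerol list was 4 without control HSD replicate 3, 4 without control HSD replicate 4 and 4 without control LSD replicate 4. At the lipid droplet, Lsd-1, a perilipin gene, held 405 ± 15.7 in control HSD larvae and 247 ± 8.09 in control LSD larvae (log2 fold change 0.71, SE 0.05, adjusted p = 3.0e-08), and Jabba, a droplet protein that anchors histones, rose as well (log2 fold change 0.52, SE 0.07, adjusted p = 4.7e-05).

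Genes of sugar storage and of the glycerol phosphate route were mostly higher. Of 9 genes that handle galactose and glycogen, 8 were higher and 0 lower, with a median log2 fold change of 0.50, beside 19.3% higher and 22.3% lower of all genes tested. AGBE, the glycogen branching enzyme, held 334, 324, 415 and 391 normalized CPM in control HSD larvae, against 178, 154, 167 and 157 in control LSD larvae (log2 fold change 1.15, SE 0.07, adjusted p = 2.6e-08), and Galk, galactokinase, held 236, 227, 221 and 212 in control HSD larvae, against 116, 108, 111 and 104 in control LSD larvae (log2 fold change 1.03, SE 0.04, adjusted p = 3.9e-10). UGP, which makes UDP-glucose, rose by less (log2 fold change 0.50, SE 0.04, adjusted p = 9.7e-08). Both enzymes of the glycerol phosphate shuttle rose, the cytosolic Gpdh (log2 fold change 1.09, SE 0.05, adjusted p = 5.7e-10) and the mitochondrial Gpo-1, which held 856 ± 18.5 in control HSD larvae and 294 ± 25.1 in control LSD larvae (mean ± SD, n = 4 each; log2 fold change 1.54, SE 0.05, adjusted p = 6.0e-11). Among the enzymes that make NADPH outside the pentose phosphate pathway the direction differed. Men, malic enzyme, held 1907 ± 57.6 in control HSD larvae and 1070.0 ± 64.1 in control LSD larvae (log2 fold change 0.83, SE 0.05, adjusted p = 9.7e-09), whereas Idh, the NADP-dependent isocitrate dehydrogenase, held 847 ± 17.2 in control HSD larvae and 1408 ± 136 in control LSD larvae (log2 fold change -0.73, SE 0.06, adjusted p = 2.0e-07). Transporters showed both directions. Tret1-1, a trehalose transporter, rose (log2 fold change 1.03, SE 0.10, adjusted p = 2.4e-06), as did CG1213 (log2 fold change 0.99, SE 0.09, adjusted p = 2.1e-06), while CG1208 fell (log2 fold change -0.82, SE 0.09, adjusted p = 4.8e-06). In trehalose metabolism Tps1, trehalose 6-phosphate synthase, rose (log2 fold change 0.41, SE 0.06, adjusted p = 1.5e-04) and Treh, trehalase, fell by a little, with overlapping libraries (log2 fold change -0.21, SE 0.06, adjusted p = 0.0095).

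The largest rise was that of CR45190, an antisense RNA gene whose minus-strand gene model spans bases 31588279 to 31590411 of chromosome 3R in Release 6. It held 13.8, 14.6, 15.3 and 9.99 normalized CPM in control HSD larvae, against 0.346, 0.353, 0.198 and 0.088 in control LSD larvae. These were 356, 376, 366 and 269 reads on HSD and 8, 8, 5 and 2 on LSD, so the RNA was barely read without sugar (log2 fold change 4.22, SE 0.17, adjusted p = 2.5e-10). It covers the plus-strand gene CG1635 (from 31588673 to 31590392), whose own change did not pass (log2 fold change 0.13, SE 0.06, adjusted p = 0.093). CG1635 was called higher by DESeq2 (0.14, adjusted p = 0.036), with plain CPM of the recovered reads (0.18, adjusted p = 0.017) and with a replicate block (0.13, adjusted p = 0.032). It was also called without control HSD replicate 3 (0.16, adjusted p = 0.042) or without control HSD replicates 3 and 4 (0.23, adjusted p = 0.0086). The remaining alternatives left it uncalled. Counting used strand, so reads of the pair are told apart as far as the library kit allows. CG1774, further along the same arm (from 31592803 to 31594719), had the next largest rise of the genes named here (log2 fold change 3.86, SE 0.07, adjusted p = 1.6e-14). Zw has a partner of the same kind. CR44512, an antisense RNA gene over its start on the X chromosome, rose with it (log2 fold change 1.07, SE 0.12, adjusted p = 8.4e-06).

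Many of the other strong rises were in genes that the table gives by a CG or CR number in place of a name. Such numbers were carried by 60 of the 95 genes that rose (63.2%) and 61 of the 87 that fell (70.1%) by more than 2-fold, beside 4501 of all 9950 genes tested (45.2%). CG5246, a serine protease gene by its RefSeq synonym SP96, held 161, 208, 185 and 184 normalized CPM in control HSD larvae, against 16.2, 22.6, 24.6 and 24.6 in control LSD larvae (log2 fold change 3.05, SE 0.13, adjusted p = 4.9e-10). CG7142, a further protease gene by its synonym SP132, held 42.9, 52.6, 43.4 and 36.5 in control HSD larvae, against 4.45, 5.26, 8.55 and 6.95 in control LSD larvae (log2 fold change 2.73, SE 0.18, adjusted p = 4.2e-08). CG12766 held 57.9, 58.5, 58.1 and 47.3 in control HSD larvae, against 8.48, 6.85, 6.77 and 5.72 in control LSD larvae (log2 fold change 2.91, SE 0.12, adjusted p = 2.5e-10). In all of these the lowest HSD library was several times the highest LSD library. CG8745 held 124, 134, 149.6 and 111 in control HSD larvae, against 16.045, 17.7, 35.9 and 20.9 in control LSD larvae (log2 fold change 2.56, SE 0.18, adjusted p = 9.5e-08), and CG14205 held 359, 432, 542 and 402 in control HSD larvae, against 106, 105, 131 and 89.8 in control LSD larvae (log2 fold change 2.00, SE 0.13, adjusted p = 3.2e-08). CG32444, which carries the synonym aldose 1-epi for aldose 1-epimerase, the enzyme that interconverts sugar anomers, held 101, 94.972, 94.6 and 77.9 in control HSD larvae, against 26.5, 23.8, 24.6 and 19.5 in control LSD larvae (log2 fold change 1.94, SE 0.13, adjusted p = 5.3e-08). The remaining genes among the 15 largest rises were CG31106 (log2 fold change 1.98, adjusted p = 6.3e-09), CG3348 (1.87, adjusted p = 7.5e-10), CG17323, a UDP-glycosyltransferase now named Ugt36D1 (1.81, adjusted p = 9.7e-08), CG31272 (1.76, adjusted p = 2.5e-10) and CG12826 (1.71, adjusted p = 5.3e-06). Zw and ATPCL, given above, complete the set.

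Digestive enzymes were among the deepest falls. Of 13 maltase and amylase genes 6 fell (46.2%) and 4 rose (30.8%), beside 22.3% and 19.3% of all genes tested. Amy-p, an alpha-amylase gene that digests starch, held 0.852, 0.116, 0.712 and 0.706 normalized CPM in control HSD larvae, against 27.4, 6.19, 36.3 and 17.6 in control LSD larvae. These were 61 reads over the HSD libraries and 2088 over the LSD libraries (log2 fold change -4.16, SE 0.40, adjusted p = 2.0e-06). The LSD libraries differed several-fold among themselves, yet each lay above every HSD library, as the rule for naming the largest falls required. Its neighbour and near-identical copy Amy-d fell too (log2 fold change -2.33, SE 0.34, adjusted p = 9.7e-05), with the caution that reads of the pair may be shared, and so did the related Amyrel (log2 fold change -1.51, SE 0.26, adjusted p = 4.2e-04). All 3 amylase genes thus fell, while the maltases, which split maltose and sucrose, went both ways. Mal-A7 rose furthest, with 57.0, 39.8, 46.7 and 44.987 in control HSD larvae, against 16.1, 13.3, 14.1 and 12.8 in control LSD larvae (log2 fold change 1.70, SE 0.12, adjusted p = 7.7e-08). Mal-A8 (log2 fold change 0.58, SE 0.06, adjusted p = 5.5e-06) and Mal-A1 (log2 fold change 0.55, SE 0.08, adjusted p = 6.5e-05) rose as well, also without overlap, and Mal-A5 rose by less (log2 fold change 0.23, SE 0.07, adjusted p = 0.021), a call lost without control HSD replicate 3 (0.20, adjusted p = 0.051), control HSD replicate 4 (0.19, adjusted p = 0.069) or both (0.13, adjusted p = 0.22). Mal-A3 (log2 fold change -0.86, SE 0.15, adjusted p = 4.0e-04), Mal-A4 (log2 fold change -0.85, SE 0.14, adjusted p = 2.2e-04) and Mal-A2 (log2 fold change -0.35, SE 0.09, adjusted p = 0.0053) fell. tobi, an alpha-glucosidase known as a target of insulin and adipokinetic hormone signals, held 12.8, 7.14, 15.8 and 15.0 in control HSD larvae, against 106, 63.9, 96.9 and 85.8 in control LSD larvae (log2 fold change -2.78, SE 0.21, adjusted p = 1.7e-07).

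All 6 lysosomal alpha-mannosidase genes fell, with a median log2 fold change of -2.47, beside 22.3% called lower of all genes tested. LManIII held 11.7, 7.10, 10.8 and 13.002 normalized CPM in control HSD larvae, against 105, 71.8, 143 and 109.8 in control LSD larvae (log2 fold change -3.27, SE 0.21, adjusted p = 2.8e-08). LManVI held 260.2, 202, 267 and 227 in control HSD larvae, against 1224, 1054, 1657 and 1655 in control LSD larvae (log2 fold change -2.53, SE 0.20, adjusted p = 2.8e-07). Between them lie LManIV (log2 fold change -2.74, SE 0.17, adjusted p = 2.6e-08) and LManV (log2 fold change -2.41, SE 0.13, adjusted p = 9.3e-09), so that the 4 members with the deepest falls form one unbroken run of genes on chromosome 2L, from 8765273 to 8781252. The paralogs are alike in sequence, and reads can be shared among them. The 5 lysozyme genes, which digest bacterial walls in the gut, fell as a family as well (median log2 fold change -0.74). LysB held 269.6, 320.5, 269 and 338 in control HSD larvae, against 679, 629, 529.8 and 564 in control LSD larvae (log2 fold change -1.01, SE 0.11, adjusted p = 6.6e-06). LysD held 763, 837, 754 and 847 in control HSD larvae, against 1404, 1211, 1166 and 1100.3 in control LSD larvae (log2 fold change -0.60, SE 0.09, adjusted p = 8.4e-05). LysS fell by a similar amount (log2 fold change -0.77, SE 0.14, adjusted p = 4.8e-04). Chitinase genes had no common direction. Cht4 fell furthest and held 6.5445, 2.13, 3.06 and 3.71 in control HSD larvae, against 19.4, 13.5, 18.2 and 22.9 in control LSD larvae (log2 fold change -2.19, SE 0.24, adjusted p = 8.1e-06), and Cht9 fell (log2 fold change -0.75, SE 0.08, adjusted p = 4.4e-06), but Cht5 rose (log2 fold change 0.72, SE 0.11, adjusted p = 1.7e-04).

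CG31089 had the largest fall of all. Its reads were 3, 1, 2 and 1 in control HSD larvae, against 257, 144, 269 and 285 in control LSD larvae. Per read sequenced, the HSD level was 0.695% of the LSD level, with an exact binomial 95% interval from 0.279% to 1.44% that covers counting error only. The fitted value of a gene so close to 0 depends on the pseudocount (log2 fold change -4.19, SE 0.24, adjusted p = 1.1e-08), and was -5.91, adjusted p = 1.2e-08 with a pseudocount of 0.1 and -3.35, adjusted p = 1.9e-08 with 1. CG31091 stands beside it on chromosome 3R and fell as well (log2 fold change -3.03, SE 0.29, adjusted p = 2.3e-06). CG15533, which RefSeq lists with the acid sphingomyelinase synonym aSMase, held 18.9, 11.8, 16.3 and 12.5 normalized CPM in control HSD larvae, against 163, 127, 172 and 179 in control LSD larvae (log2 fold change -3.40, SE 0.18, adjusted p = 4.0e-09). CG34316, whose synonym JHBP stands for juvenile hormone binding protein, held 17.7, 14.2, 14.4 and 12.5 in control HSD larvae, against 69.6, 64.3, 76.8 and 72.9 in control LSD larvae (log2 fold change -2.24, SE 0.11, adjusted p = 3.3e-09). The rule that picked the largest falls required diets without overlap, so the lack of overlap in those genes was set by the choice. CG17362, of which control LSD replicate 3 was far above the other LSD libraries, held 0.736, 0.427, 3.64 and 1.75 in control HSD larvae, against 5.84, 6.89, 22.7 and 8.67 in control LSD larvae (log2 fold change -2.47, SE 0.42, adjusted p = 3.6e-04). CG13325 held 3.76, 4.07, 13.1 and 6.43 in control HSD larvae, against 31.4, 21.3, 33.6 and 26.6 in control LSD larvae (log2 fold change -2.11, SE 0.34, adjusted p = 2.5e-04), and CG31463 held 5.65, 4.58, 5.48 and 4.64 in control HSD larvae, against 28.4, 21.7, 24.1 and 27.8 in control LSD larvae (log2 fold change -2.21, SE 0.15, adjusted p = 7.2e-08).

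Genes that break down amino acids and purines, and those that release or burn fatty acids, were mostly lower. Of 21 genes of amino acid and purine breakdown 14 fell and 2 rose (median log2 fold change -0.58). Uro, urate oxidase, which is expressed in the Malpighian tubules and ends purine breakdown, held 11.5, 5.04, 41.8 and 28.0 normalized CPM in control HSD larvae, against 184, 91.2, 200.1 and 116 in control LSD larvae (log2 fold change -3.07, SE 0.47, adjusted p = 1.4e-04). Its libraries ranged widely, from 5.04 to 41.8 on HSD and from 91.2 to 200.1 on LSD, and relative to its level the spread was wider on HSD. The lack of overlap was required by the rule for naming the largest falls. ry, xanthine dehydrogenase, acts just before it and fell with it (log2 fold change -0.82, SE 0.07, adjusted p = 1.2e-06). Gdh, glutamate dehydrogenase, held 562, 572, 616 and 597 in control HSD larvae, against 1179.7, 1017, 1285 and 1099.9 in control LSD larvae (log2 fold change -0.96, SE 0.06, adjusted p = 1.6e-08). CG15093 fell in the same list (log2 fold change -1.09, SE 0.05, adjusted p = 1.0e-09), and CG11796, named Hpd in RefSeq for 4-hydroxyphenylpyruvate dioxygenase of tyrosine breakdown, fell by a like amount (log2 fold change -1.20, SE 0.14, adjusted p = 1.0e-05). Sardh, sarcosine dehydrogenase, held 7.55, 5.86, 12.5 and 10.1 in control HSD larvae, against 52.6, 39.2, 54.5 and 39.3 in control LSD larvae (log2 fold change -2.34, SE 0.18, adjusted p = 1.7e-07). It belongs to the 11 genes of serine and one-carbon metabolism, of which 5 fell (45.5%) and 2 rose (18.2%), beside 22.3% and 19.3% of all genes tested. Only 3 of the 11 fell without control HSD replicate 1, control HSD replicate 2 or control LSD replicate 3. aay, phosphoserine phosphatase, which makes serine from a glycolytic intermediate, went up, with 175, 175, 135 and 139 in control HSD larvae, against 62.8, 67.8, 44.7 and 45.3 in control LSD larvae (log2 fold change 1.50, SE 0.14, adjusted p = 1.6e-06). Ahcy13, adenosylhomocysteinase (log2 fold change -0.63, SE 0.07, adjusted p = 6.5e-06), and CG3011, serine hydroxymethyltransferase by its RefSeq name Shmt (log2 fold change -0.56, SE 0.05, adjusted p = 2.1e-06), fell. In a list that pools lipolysis with fatty acid oxidation, 18 of 26 genes fell and 1 rose. The falls included scu, a mitochondrial hydroxyacyl-CoA dehydrogenase gene (log2 fold change -0.60, SE 0.06, adjusted p = 3.1e-06), and CG6543, the enoyl-CoA hydratase gene Echs1 in RefSeq (log2 fold change -0.56, SE 0.05, adjusted p = 1.1e-06).

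A broad, shallow fall ran through genes of mitochondria and protein synthesis. Of 72 mitochondrial ribosomal protein genes 70 fell and 0 rose, with a median log2 fold change of -0.33. The shares over all genes tested were 22.3% lower and 19.3% higher. mRpL37 held 66.5 ± 2.85 in control HSD larvae and 85.1 ± 1.47 in control LSD larvae (mean ± SD of normalized CPM, n = 4 each; log2 fold change -0.35, SE 0.04, adjusted p = 6.7e-06), and mRpS10 had the deepest fall of the 72 (log2 fold change -0.59, SE 0.07, adjusted p = 7.4e-06). The TCA cycle enzymes fell by less, 14 of 17 lower and 0 higher with a median of -0.16, but with plain CPM of the recovered reads the cycle had 8 lower members and 3 higher. kdn, citrate synthase, which opens the cycle, fell most among them (log2 fold change -0.53, SE 0.05, adjusted p = 2.0e-06), and SdhA, the flavoprotein of succinate dehydrogenase, fell little (log2 fold change -0.20, SE 0.02, adjusted p = 2.2e-05). Nuclear genes of the respiratory chain had 31 of 59 members lower and 0 higher (median -0.15), a number that dropped to 13 when the control libraries were fitted alone. None of the 12 genes carried by the mitochondrial genome was called in either direction, though 3 were called lower without control HSD replicate 3, 2 without control LSD replicate 4 and 1 without control LSD replicate 3. By limma 2 of them had an unadjusted p under 0.05 in the lower direction and 0 in the higher, edgeR called 0 and DESeq2 called 2 lower.

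Genes of protein synthesis fell by small amounts. Ribosome biogenesis and RNA polymerase I, which build new ribosomes, had 18 of 20 genes lower, 1 higher and a median log2 fold change of -0.46. Fib, fibrillarin, which modifies ribosomal RNA in the nucleolus, held 83.4, 83.2, 109.9 and 98.5 normalized CPM in control HSD larvae, against 173, 155.7, 138 and 141 in control LSD larvae (log2 fold change -0.70, SE 0.11, adjusted p = 1.5e-04). Nopp140, a nucleolar chaperone, fell too (log2 fold change -0.52, SE 0.07, adjusted p = 4.8e-05). Of 85 cytosolic ribosomal protein genes 60 fell and 0 rose (median -0.21), and their values summed to 89787 to 93849 in control HSD larvae, against 98318 to 119573 in control LSD larvae, without overlap. The same genes had 39 members lower when the control libraries were fitted alone. RpL23A was the member with the lowest adjusted p (log2 fold change -0.44, SE 0.06, adjusted p = 6.3e-05). Aminoacyl-tRNA synthetases, which charge tRNAs, had 27 of 35 genes lower and 0 higher (median -0.27), with LysRS at -0.52 (adjusted p = 1.2e-06) and TrpRS at -0.51 (adjusted p = 6.6e-07). Protein breakdown by the proteasome had 30 of 34 subunit genes lower and 0 higher (median -0.22), and 17 lower with the control libraries alone and 9 without control HSD replicates 3 and 4. The vacuolar proton pump had 10 of 22 lower and 1 higher, and 6 lower after quantile normalization and 16 without control HSD replicates 3 and 4. Of all genes tested, 22.3% were called lower. Several of the lists described so far had a count of 0 in the other direction. By limma 1 of their 338 members had an unadjusted p under 0.05 in that direction, and edgeR called 0 and DESeq2 0. These counts depend on the scaling of the libraries. With plain CPM of the recovered reads some TCA cycle genes were called higher, as given above.

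**Figure D4:**
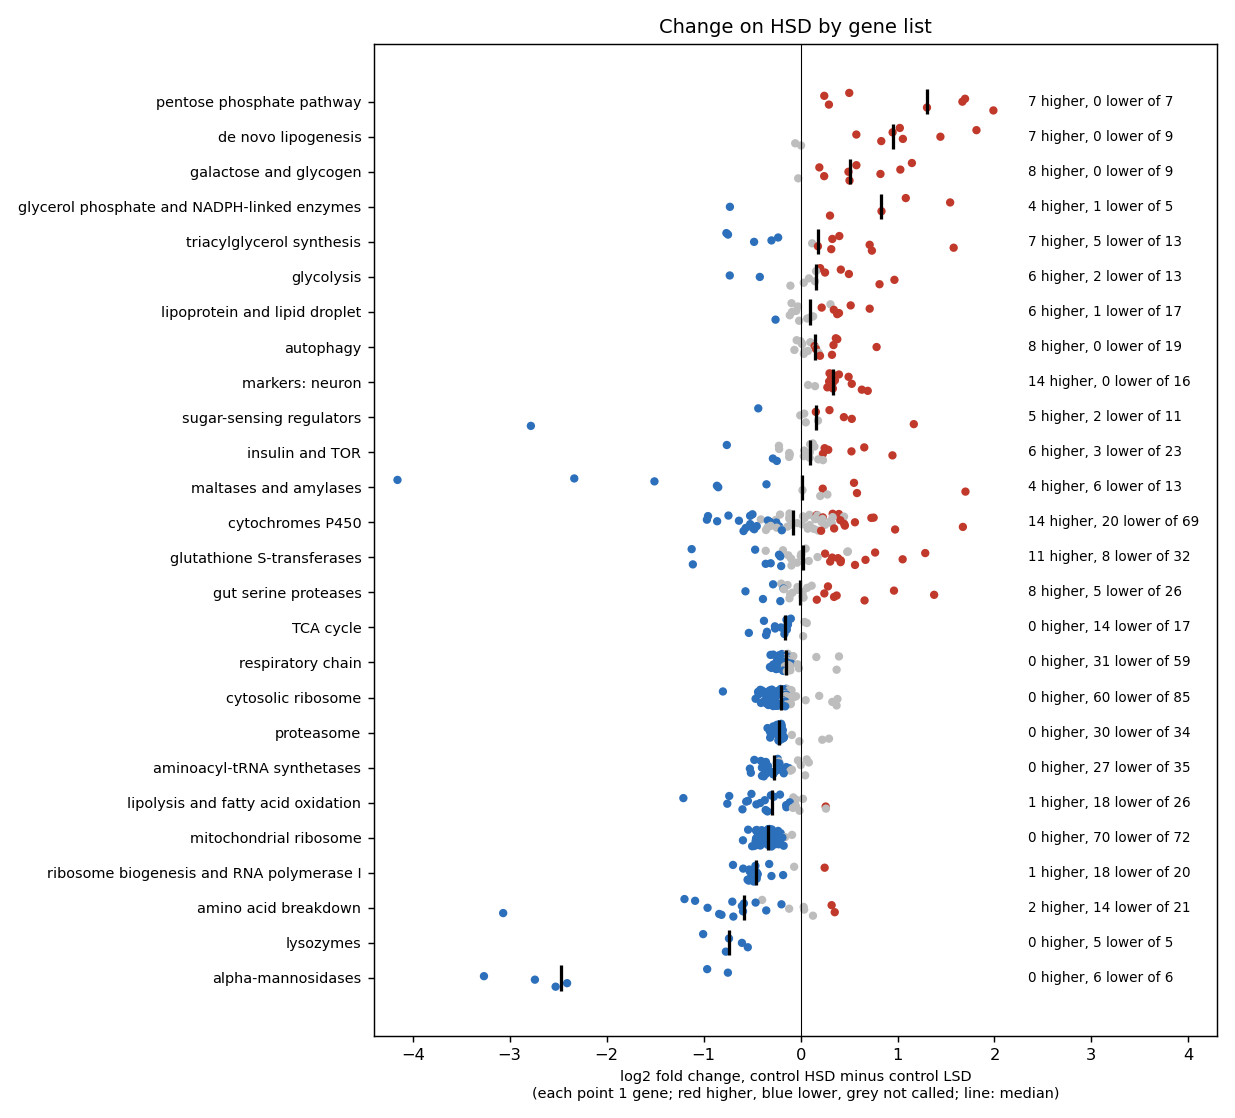
Each row is a gene list and each point the log2 fold change of 1 member, control HSD minus control LSD, in red where called higher, in blue where called lower and in grey otherwise. The black line marks the list's median, from 1.30 in the pentose phosphate pathway to -2.47 in the alpha-mannosidases, and the text at the right gives the called members.

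Of 23 genes of the insulin and TOR pathways 6 rose (26.1%) and 3 fell (13%), beside 19.3% and 22.3% of all genes tested. Thor, the translation repressor 4E-BP, held 171, 148, 256 and 173 normalized CPM in control HSD larvae, against 131, 75.4, 97.1 and 83.7 in control LSD larvae (log2 fold change 0.95, SE 0.19, adjusted p = 0.0014). InR, the insulin receptor, held 27.0, 27.2, 32.0 and 28.0 in control HSD larvae, against 12.7, 16.2, 21.7 and 22.9 in control LSD larvae (log2 fold change 0.66, SE 0.14, adjusted p = 0.0019), and REPTOR, a transcription factor that TORC1 holds in the cytoplasm, rose by less (log2 fold change 0.52, SE 0.08, adjusted p = 1.2e-04). None of the 3 overlapped between diets. Thor and InR are known targets of the transcription factor FOXO. foxo, which encodes that factor and is restrained by insulin, was lower in control HSD larvae (log2 fold change -0.29, SE 0.08, adjusted p = 0.011). Ilp5, an insulin-like peptide of the brain, was called lower too (log2 fold change -0.76, SE 0.17, adjusted p = 0.0024), but at levels close to the filter of 1 normalized CPM. It held 0.929, 1.40, 1.67 and 1.30 in control HSD larvae, against 3.20, 2.34, 2.53 and 2.24 in control LSD larvae. In the hormone list 4 of 17 genes rose (23.5%) and 1 fell (5.88%). AkhR, the receptor of adipokinetic hormone, which mobilises stored fuel, rose (log2 fold change 0.61, SE 0.07, adjusted p = 1.5e-05), sNPF, a neuropeptide that promotes feeding, rose by less (log2 fold change 0.35, SE 0.08, adjusted p = 0.0032), and the growth-blocking peptide gene CG11395 (Gbp2) fell (log2 fold change -0.64, SE 0.06, adjusted p = 2.4e-06). Autophagy genes had 8 of 19 members higher and 0 lower, with Atg18b at log2 fold change 0.78, SE 0.10, adjusted p = 2.2e-05, and 3 higher with the control libraries alone or without control HSD replicates 3 and 4. Of the clock genes analysed, 5 in all, 4 rose, led by tim with 10.7, 12.2, 11.8 and 9.96 in control HSD larvae, against 5.67, 6.0972, 6.14 and 4.4008 in control LSD larvae (log2 fold change 0.95, SE 0.13, adjusted p = 5.6e-05) and followed by cwo, a repressor in the same loop (log2 fold change 0.44, SE 0.07, adjusted p = 1.3e-04). The hour at which larvae of each diet were frozen is not given in the sources used here, and the number of clock genes called was 2 with the control libraries alone.

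Detoxification families held calls in both directions, as did the genes tested as a whole (19.3% higher and 22.3% lower). Of 69 cytochrome P450 genes 14 rose (20.3%) and 20 fell (29.0%). Of 32 glutathione S-transferases 11 rose (34.4%) and 8 fell (25%), and of 16 UDP-glycosyltransferases 7 rose (43.8%) and 2 fell (12.5%). The 16 do not include CG17323, the UDP-glycosyltransferase gene given among the largest rises, so the family is not complete. Cyp6a8 held 87.4, 75.1, 76.9 and 96.1 normalized CPM in control HSD larvae, against 28.0, 28.5, 21.7 and 25.6 in control LSD larvae (log2 fold change 1.67, SE 0.12, adjusted p = 9.7e-08), while Cyp4ac1 held 30.1, 30.6, 34.1 and 32.1 in control HSD larvae, against 65.3, 65.2, 61.6 and 57.8 in control LSD larvae (log2 fold change -0.97, SE 0.05, adjusted p = 9.7e-09) and Cyp4d1 fell similarly (log2 fold change -0.86, SE 0.05, adjusted p = 2.4e-08). GstE7 rose (log2 fold change 1.05, SE 0.09, adjusted p = 5.8e-07), and GstD10 fell (log2 fold change -1.12, SE 0.10, adjusted p = 1.5e-06) although GstD8 of the same cluster rose (log2 fold change 1.29, SE 0.09, adjusted p = 9.9e-08). The medians of the families were -0.08, 0.03 and 0.21, in the order given. Gut serine proteases, the trypsins and Jonah enzymes that digest protein, had 8 of 26 members higher (30.8%) and 5 lower (19.2%). alphaTry held 211, 212, 179 and 178 in control HSD larvae, against 84.3, 69.8, 75.0 and 69.6 in control LSD larvae (log2 fold change 1.38, SE 0.08, adjusted p = 1.2e-08), and Jon99Ci fell (log2 fold change -0.57, SE 0.07, adjusted p = 2.1e-05). Several trypsin genes lie together and are near copies, so reads may be shared among them.

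Marker genes of tissues were read for what the whole-larva libraries hold. In such bulk samples fewer cells of a type and less RNA per cell cannot be told apart. Muscle, gut, fat body and neuron markers were all present, as the label of whole larvae implies. Of 16 neuron markers 14 were higher and 0 lower, and their sum was 570.1 to 609 normalized CPM in control HSD larvae and 415 to 506 in control LSD larvae, without overlap. unc-13, which primes synaptic vesicles, had the lowest adjusted p (log2 fold change 0.69, SE 0.07, adjusted p = 4.3e-06), and Syt1, the calcium sensor of vesicle release, rose by less (log2 fold change 0.34, SE 0.07, adjusted p = 8.8e-04). None was lower by an unadjusted p under 0.05 in limma (0 genes), in edgeR (0) or in DESeq2 (0), and the same held for the autophagy genes. Midgut markers summed to 2128 to 2319 normalized CPM in control HSD larvae and 1819 to 1906 in control LSD larvae. Among them betaTry, a trypsin gene, held 908 ± 91.9 in control HSD larvae and 700 ± 47.5 in control LSD larvae (mean ± SD, log2 fold change 0.37, SE 0.08, adjusted p = 0.0027). alphaTry, given above, is a member too, so the rise of the midgut sum is largely that of trypsin genes. Of the 16 midgut markers, 6 were higher (37.5%) and 3 lower (18.8%), beside 19.3% and 22.3% of all genes tested. Muscle markers summed to 58376 to 63896 normalized CPM in control HSD larvae and 59758 to 64849.7 in control LSD larvae, with overlap, and no direction is given for them. Fat body markers summed to 8499.8 to 10769.5 normalized CPM in control HSD larvae and 10403 to 13430.3 in control LSD larvae, with overlap. Of these, 3 of 6 were lower (50%), and only 1 was lower without control HSD replicate 1, control HSD replicate 2, control LSD replicate 1 or control LSD replicate 3. The part of these shifts in the changes of neural, gut and fat body genes was not tested. As a check of stage, 1 of 8 salivary glue genes, ng1, was analysed. It held 72.9, 85.4, 70.0 and 98.8 in control HSD larvae, against 44.9, 43.8, 45.9 and 44.7 in control LSD larvae, and it rose without overlap (log2 fold change 0.85, SE 0.17, adjusted p = 0.0012). Lsp1beta, a storage protein of late larvae, held 1.55, 0.31, 1.1304 and 0.446 in control HSD larvae, against 5.49, 0.53, 63.8 and 0.264 in control LSD larvae, with 1 LSD library far above the rest. It was not called by limma (log2 fold change -1.72, SE 1.04, adjusted p = 0.2). Both edgeR (log2 fold change -4.36, adjusted p = 0.017) and DESeq2 (log2 fold change -4.35, adjusted p = 9.0e-04) called it lower. Lsp2, another such protein, was not analysed here.

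Genes changed by more than 2-fold stood next to a gene changed likewise in 13 places, which took in 28 genes. Besides the mannosidases, the amylases, the CG31091 and CG31089 pair and the antisense pair at Zw, these included Desat1 with CG17207 beside it on chromosome 3R, from 12437817 to 12447616, both higher on HSD (log2 fold changes from 1.42 to 1.44). Also higher were CG11912 and CG11911 on chromosome 2L, from 318362 to 321248, with log2 fold changes from 1.10 to 1.61. Neighbours were counted in the order of the genes tested, and how often unrelated genes would fall side by side was not tested.

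The larvae with the RNAi insertion against grn were fed the same diets, which shows the response in 8 other libraries. Reads counted as grn went against the label. They gave 207, 223, 231 and 215 normalized CPM in grn HSD larvae and 227, 259, 229 and 240.3 in grn LSD larvae, far above the level in control larvae given above. The paper, however, reports that both of its RNAi lines lowered grn expression. Whether the reads counted here come from the gene itself or from the RNAi insertion was not tested. The groups are called here by their label. Of the 182 genes that changed by more than 2-fold in control larvae, 162 were called in the same direction in grn RNAi larvae and 175 had the same sign. The change on HSD differed between the genotypes for 532 genes (5.35% of those tested), and for 36 of these 182. CG10924, which RefSeq names Pepck2 for phosphoenolpyruvate carboxykinase of gluconeogenesis, turned round. It held 50.8, 48.4, 53.1 and 46.8 in grn HSD larvae, against 27.2, 24.9, 21.4 and 32.9 in grn LSD larvae. In control larvae the values were 35.3, 31.1, 34.4 and 29.0 in control HSD larvae, against 125, 110.3, 106 and 74.3 in control LSD larvae. It rose in grn RNAi larvae (log2 fold change 0.91) and fell in control larvae (-1.64; difference 2.55, SE 0.20, adjusted p = 9.4e-06). Cht9 turned round as well, with log2 fold changes of 0.85 in grn RNAi and -0.75 in control larvae (difference 1.59, SE 0.11, adjusted p = 2.7e-06). Mal-A7 rose in both and further in grn RNAi larvae (3.89 against 1.70; difference 2.19, SE 0.17, adjusted p = 7.0e-06). Gut proteases differed between the genotypes. Of 26 gut serine proteases 23 rose on HSD in grn RNAi larvae, against 8 in control larvae, and 22 of the 26 differed between the genotypes. Of all 9950 genes tested, 1823 were called higher on HSD in grn RNAi larvae and 1918 in control larvae. The shallow fall of energy genes differed for part of its members. The difference was called for 13 of 59 respiratory chain genes, whose median log2 fold change was 0.03 in grn RNAi larvae and -0.15 in control larvae. It was called for 11 of 22 proton pump genes, with medians of 0.11 in grn RNAi larvae and -0.14 in control larvae. Of 72 mitochondrial ribosomal genes 2 differed, which does not show that the other effects were equal.

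**Figure D5:**
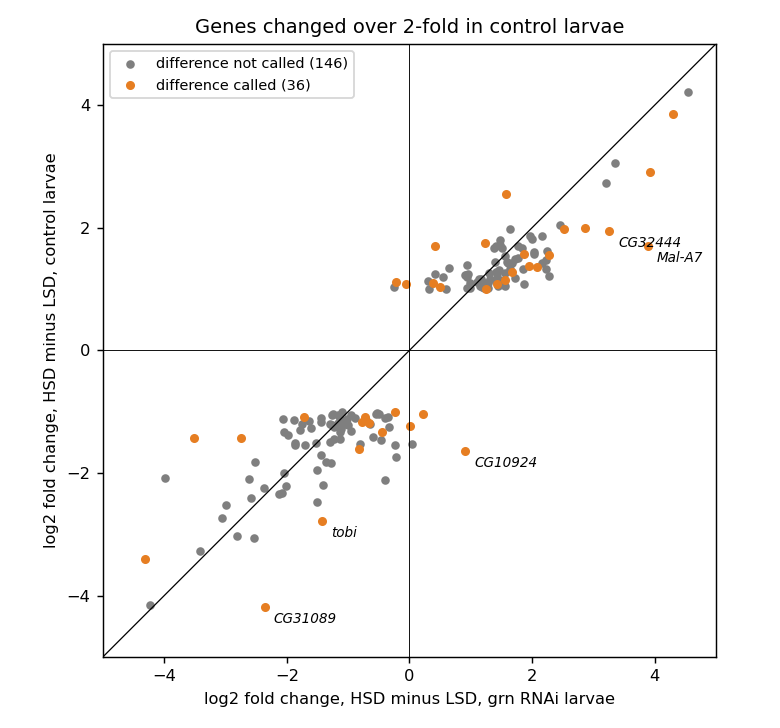
Log2 fold changes on HSD of the 182 genes changed by more than 2-fold in control larvae, with grn RNAi larvae on the x axis and control larvae on the y axis, and orange points for the 36 whose change differed between the genotypes. Points on the diagonal changed equally, and CG10924 lies at 0.91 on the x axis and -1.64 on the y axis.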

How the data were processed

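The 16 libraries were poly(A)-selected and strand-specific RNA-seq of pools of 20 whole larvae, 4 libraries in each of 4 groups, and the sources name no separate cultures or days, so p-values measure the spread between these samples. Per the submitters' processing notes, reads were trimmed with Trimmomatic, aligned with TopHat2 (version 2.1.0) and counted per gene with HTSeq. The deposited signal is a normalized CPM table, in which, by the values, the authors divided counts by a scale of each library after a filter on low genes. The authors' own columns of fold changes, test scores and p-values were not used. Reads were recovered from the steps between values, and 100% of the values in each library came out as whole reads, within 0.01. Genes entered the test if any group had 3 or more libraries above 1 normalized CPM. Values were tested as log2(value + 0.5) with limma (version 3.58.1; R version 4.3.3) in one fit of all 16 libraries with a trended variance, and the added 0.5 understates the changes of low genes. edgeR (version 4.0.16) and DESeq2 (version 1.42.0) were run on the recovered reads as alternatives. Replicates differed by more than sampling noise (chi-square per degree of freedom from 26.9 to 141), so none was counted as a duplicate. The text names the 15 largest called changes each way with a mean of at least 10 normalized CPM and no overlap, up to 4 members of each gene list by adjusted p, and all genes of the sugar-sensing list. CG1635, CR44512, CG31091, Amy-d, Amyrel, FASN1, ACC, Hex-C, ImpL3, CG11796, ry, Ilp5, foxo, Mal-A2, Mal-A3, Mal-A4 and Mal-A5 were added after their values were seen. The lists and members were chosen with earlier results of these data known, and list patterns were corrected, and older symbols matched, once the table was open. Names and synonyms come from RefSeq. No genome sequence was used here.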

Additional observations from a re-analysis of the deposited data

Results flagged for a closer look

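Single libraries stood far from the other 3 of their group in 10 of 284 sets of 4 values checked (3.52%), and chance gives about 1 in 20 such sets. CG12766 stood at 47.3 normalized CPM in control HSD replicate 4, against 57.9 to 58.5 normalized CPM in the other 3. CG17362 stood at 22.7 normalized CPM in control LSD replicate 3, against 5.84 to 8.67 normalized CPM in the other 3. CG1774 stood at 33.7 normalized CPM in control LSD replicate 4, against 37.0 to 37.6 normalized CPM in the other 3. GstE7 stood at 81.6 normalized CPM in control HSD replicate 2, against 67.7 to 69.4 normalized CPM in the other 3. Lsp1beta stood at 63.8 normalized CPM in control LSD replicate 3, against 0.264 to 5.49 normalized CPM in the other 3. Men stood at 1993 normalized CPM in control HSD replicate 1, against 1869.9 to 1883 normalized CPM in the other 3. Pgd stood at 265 normalized CPM in control LSD replicate 1, against 231 to 236 normalized CPM in the other 3. foxo stood at 64.4 normalized CPM in control LSD replicate 3, against 53.7 to 55.2 normalized CPM in the other 3. The summed level of the cytosolic ribosomal protein genes stood at 89787 normalized CPM in control HSD replicate 4, against 93319 to 93849 normalized CPM in the other 3. The share of summed values in genes called higher stood at 16.7% in control HSD replicate 3, against 17.3 to 17.4% in the other 3.

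The change on HSD differed between grn RNAi and control larvae by the interaction test for 37 of 131 genes named in the text, beside 5.35% of all genes tested. Most of the 131 were chosen by their change in control larvae, so they are not a fair sample of genes, and betaTry is not among them. Differences are given here as the grn RNAi log2 fold change minus the control one. Genes that rose in control larvae and rose further in grn RNAi larvae were AcCoAS (0.51), AkhR (0.45), CG12766 (1.01), CG14205 (0.86), CG1774 (0.44), CG32444 (1.32), Gk2 (0.74), Gpdh (0.35), Hex-A (0.26), Jabba (0.49), Mal-A1 (1.09), Mal-A7 (2.19), Mal-A8 (1.32), Men (0.59), Zw (0.53), alphaTry (0.58) and fu12 (0.29). Genes that fell in control larvae and fell less in grn RNAi larvae were CG15093 (0.36), Gdh (0.63), Idh (0.35), kdn (0.34) and tobi (1.36). Genes that fell in control larvae and did not pass in grn RNAi larvae were LysB (0.76, with a grn RNAi log2 fold change of -0.24, adjusted p = 0.091) and LysD (0.51, with a grn RNAi log2 fold change of -0.10, adjusted p = 0.41). CG31089 had a fitted difference of 1.83, but on HSD it was near 0 in both genotypes, at a mean of 0.0731 normalized CPM in grn RNAi and 0.069 in control larvae, so that its fitted falls are set mainly by the pseudocount and by the LSD levels (2.59 in grn RNAi and 10.2 in control larvae) and are not read as unequal responses. The rise was smaller in grn RNAi larvae for CG31272 (-0.52), CG8745 (-0.98) and Tret1-1 (-0.52). The fall was deeper in grn RNAi larvae for CG15533 (-0.91), LysS (-0.78) and Mal-A3 (-1.24). The sign of the fitted change differed between the genotypes for Aldh-III (0.47), CG10924 (2.55), Cht5 (-0.93), Cht9 (1.59), SdhA (0.28) and Treh (0.36), of which Aldh-III and Cht5 did not pass in grn RNAi larvae.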

How the results depend on the processing

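Against 1918 genes higher and 2220 lower, the alternatives kept both counts within 1.5 times except in these cases. With the 8 control libraries fitted alone 1181 genes were higher and 1661 lower. That fit has fewer libraries to estimate the spread and takes no part of it from the grn RNAi libraries. Which of these lowered the counts was not tested. A minimum log2 fold change of 0.5 left 393 higher and 414 lower, and an adjusted p under 0.01 left 1083 higher and 1623 lower. Leaving out 1 library at a time gave 1554 to 2008 higher and 1938 to 2293 lower. Without control HSD replicates 3 and 4, an alternative added after the data were seen, 1662 were higher and 2057 lower. Scaling moved the balance. With plain CPM of the recovered reads 2317 were higher and 1835 lower, and the median of all genes was 0.07 in place of 0.02. edgeR gave 1866 and 2198, and DESeq2 2086 and 2187. Under each alternative 0 genes were called in both fits in opposite directions. The replicate block gave 1843 higher and 2172 lower, but same-numbered libraries did not deviate together (correlations -0.44, 0.46, 0.55 and -0.25), so the numbers do not pair the samples. Among the lists, the TCA cycle had 9 members lower with the control libraries alone. Depth limits the thinnest genes: intervals given for reads cover counting error only, without molecular identifiers, and pooled larvae hide the spread between animals.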
